A study of Mus musculus with 2 samples.

Results

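Cholesterol and long-chain fatty acids are made from acetyl-CoA by enzymes whose genes share a set of transcription factors. The sterol regulatory element-binding proteins (SREBPs) are held in the endoplasmic reticulum by Scap and the Insig proteins when sterols are plentiful. When sterols are scarce Scap carries them to the Golgi, where they are cut, and the released factor enters the nucleus and switches on sterol and fatty acid synthesis genes. In growing cartilage the pathway supplies membrane lipid and the sterol that is attached to hedgehog ligands, and inherited defects of its later enzymes are known for skeletal malformation.

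The genes described here were a list of 33 enzymes and regulators of this pathway, chosen by function and by gene symbol, of which 32 had at least 1 probe set annotated with that symbol alone, out of 18193 genes measured in this way. Acat2 had no such probe set and was not analysed here. The 32 genes were covered by 75 of the 45037 probe sets. The Affymetrix Mouse Genome 430 2 array measured RNA of chondrocytes freed with collagenase from the ribs of mice aged 5 days. There were 2 samples, 1 from wild-type mice and 1 from knock-in mice with the V156D change in Matn1, the matrilin-1 gene. The design text describes RNA from pooled cells of 5 littermates, so each array is a pool, without saying if that number holds for each genotype, and zygosity, strain and sex were not stated. With 1 array per genotype no spread between animals was measured, so differences are described and not tested. Higher and lower below mean the value of the mutant array relative to that of the wild-type array, and a difference between these arrays is not shown to be one between genotypes.

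The arrays and the labelled tissue were checked first. Median intensities were 54.3 in the wild-type array and 55.1 in the mutant array. All 9 chondrocyte markers were above the signal floor, an intensity of 54.6 that is the median over all probe sets, and Col2a1, the main cartilage collagen, had 27997 and 29057. Their log2 ratios ran from -0.29 for Sox9, the chondrocyte master regulator, to 0.15 for the collagen gene Col11a2, with 0.06 for Acan, which encodes aggrecan. The other marker lists differed in size and direction. Of 11 fibroblast and tendon markers 10 had higher values, with a median log2 ratio of 0.54. The 5 of 8 endothelial markers at or above the floor had a median of 1.06. It was 1.03 over all 8, and 0.81 for the 5 with an offset of 32 added before log2. Emcn, among the 5, had 38.2 in the wild-type array, under the floor, and 96.4 in the mutant array. All 9 heat shock genes were lower, with a median of -0.64. The summed intensity of the fibroblast list was 45985 in the wild-type array and 69578 in the mutant array, that of the endothelial list 555 and 862, and that of the heat shock list 84998 and 64760. Log2 ratios ran from -0.10 for Pdgfra to 1.76 for Thbs4 in the fibroblast and tendon list, with 1.35 for Col1a1, the main collagen of bone and tendon. They ran from -0.19 for Egfl7 to 1.39 for Cdh5, the endothelial cadherin, whose other probe set, below the floor, gave 0.11. Among heat shock genes they ran from -1.48 for Dnaja4 to -0.15 for Hspa1b. The pools also differed in sex-linked transcripts, with log2 ratios of -0.63 for Xist and 1.09 for Eif2s3y. In bulk RNA a smaller share of a cell type and less RNA per cell cannot be told apart.

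The promoters show what the sterol genes share in sequence. Windows of 250 bases upstream of the annotated start were held for 26 of the 32 genes in the RefSeq table of GRCm38.p6, as 35 windows because some genes have several starts. The last 150 bases before the start are printed for Hmgcs1, the only member with the sterol regulatory element searched for, and for the sterol enzymes with a single window that had the 3 lowest (Msmo1, Mvk and Idi1) and the 2 highest (Lss and Hsd17b7) log2 ratios. They lie at chr13:119690201-119690350 (+ strand), chr8:64733579-64733728 (- strand), chr5:114444119-114444268 (+ strand), chr13:8885456-8885605 (+ strand), chr10:76531455-76531604 (+ strand) and chr1:169969206-169969355 (- strand) of GRCm38.p6. Capitals mark motif matches on either strand, read 5′ to 3′ in the direction of the gene.

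Hmgcs1: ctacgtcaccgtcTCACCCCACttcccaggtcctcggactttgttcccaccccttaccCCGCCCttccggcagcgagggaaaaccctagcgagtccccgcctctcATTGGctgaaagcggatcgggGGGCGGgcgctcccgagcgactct
Msmo1: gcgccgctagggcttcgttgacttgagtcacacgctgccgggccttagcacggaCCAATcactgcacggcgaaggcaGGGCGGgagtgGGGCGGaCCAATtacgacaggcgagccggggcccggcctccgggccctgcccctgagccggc
Mvk: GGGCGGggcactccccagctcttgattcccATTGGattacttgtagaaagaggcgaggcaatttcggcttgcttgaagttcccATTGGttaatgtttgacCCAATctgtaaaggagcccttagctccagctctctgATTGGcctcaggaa
Idi1: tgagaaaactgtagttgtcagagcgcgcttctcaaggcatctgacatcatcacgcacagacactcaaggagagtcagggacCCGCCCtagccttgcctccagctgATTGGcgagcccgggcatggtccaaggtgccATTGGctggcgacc
Lss: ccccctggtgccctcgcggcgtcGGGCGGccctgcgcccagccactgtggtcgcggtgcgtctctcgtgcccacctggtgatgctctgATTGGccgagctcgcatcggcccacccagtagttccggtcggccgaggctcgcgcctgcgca
Hsd17b7: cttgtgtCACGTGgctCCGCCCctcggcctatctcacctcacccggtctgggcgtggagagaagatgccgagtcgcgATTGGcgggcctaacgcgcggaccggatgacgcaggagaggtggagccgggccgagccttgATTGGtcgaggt

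CCAAT, which reads ATTGG on the other strand, is the box bound by NF-Y, a factor that works together with SREBP. It was present in 22 of 35 member windows, or 62.9%, against 34.5% of the 11807 windows of all genes at or above the floor and 33.8% of all 32851 windows. All 6 printed windows hold it, and Mvk has 4 copies. The GC box GGGCGG, searched on both strands and bound by Sp1, was in 71.4% of member windows against 57.6% of those of all genes at or above the floor and 32.7% of all windows. The E-box CACGTG was in 17.1% against 8.37%.

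The sterol regulatory element, searched as TCACNCCAC on both strands, was found in 1 member window, that of Hmgcs1, where it ends 129 bases before the start. It was in 2.86% of member windows and 0.999% of those of all genes at or above the floor. The shorter form CACNCCAC, which the longer motif contains, was in 5.71% against 5.62%. A match is only a match of letters, and its absence says only that these letters are not in the window. The median log2 ratio was -0.05 for the 21 genes with a CCAAT box and -0.06 for the 5 without, and these medians are nearly equal.

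As a group the sterol and fatty acid synthesis genes had nearly the same signals in both arrays. All 32 were at or above the floor in both arrays. None of the 32 differed at least 1.5-fold between the arrays, against 3.72% of the 11329 genes at or above the floor, and none differed 2-fold, against 0.909%. In none was the brighter value even 25% above the dimmer, a log2 ratio of 0.32 in either direction, against 14.8% of all genes. The log2 ratios of mutant over wild type ran from -0.29 for Msmo1 to 0.25 for Hsd17b7. Their median was -0.02, as it was for all genes at or above the floor (-0.02), and their SD over genes was 0.12 against 0.27.

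The direction of these small differences was not settled. With the values as deposited 14 members were above 0 and 18 below, so that 43.8% were above, beside 44.8% of all genes. After quantile normalization the numbers were 20 and 12, or 62.5% above beside 51.5% of all genes, and after a loess correction of the ratio 19 and 13, or 59.4% beside 51.0%. The members' sign split therefore moved with the scaling of the arrays, while no member reached 1.5-fold in any of these settings.

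**Figure D1:**
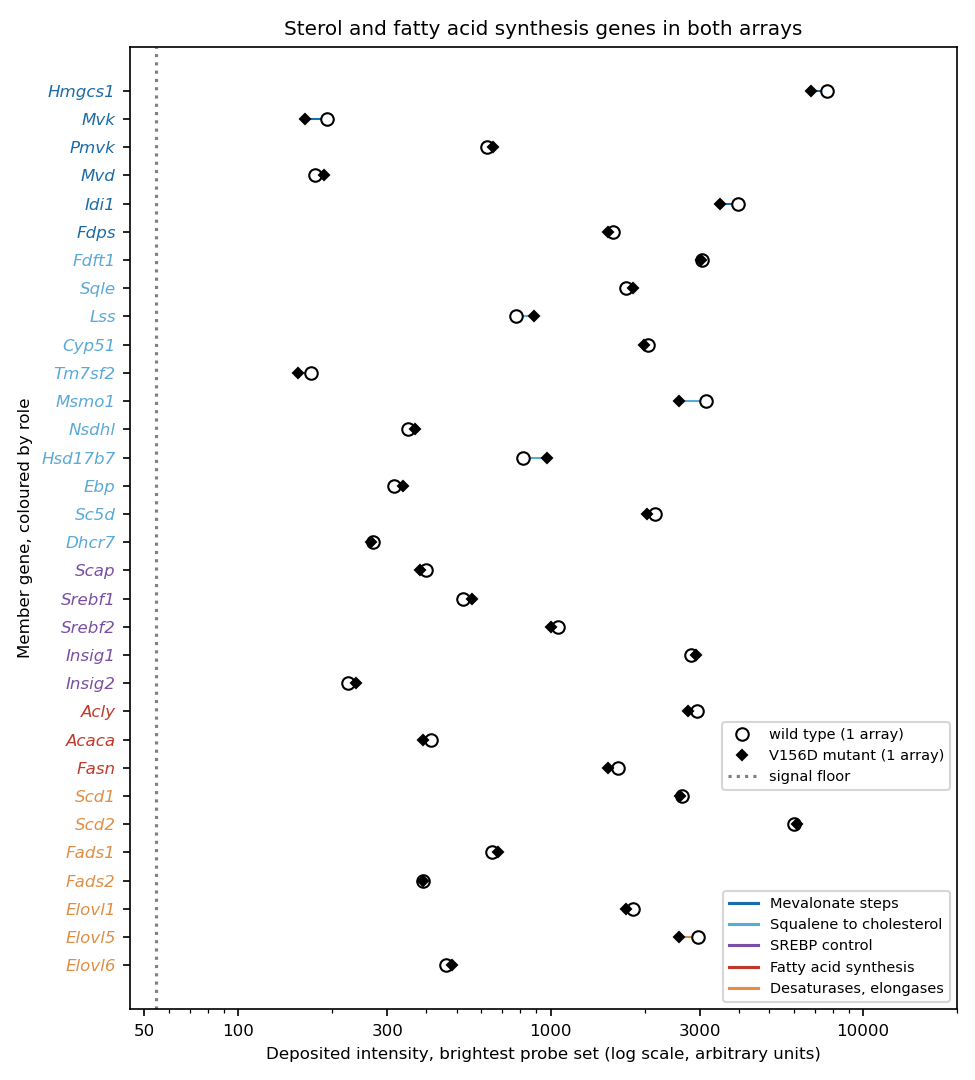
Deposited intensity of the brightest probe set of each of the 32 genes (horizontal log axis, arbitrary units), with the wild-type array as an open circle, the mutant array as a diamond and the signal floor of 54.6 as a dotted line; colours give the role, and positions of different genes are not comparable because probe sets differ. The symbols nearly coincide for most genes, and the widest gaps are those of Msmo1, Hsd17b7 and Mvk.

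The mevalonate steps, which turn acetyl-CoA into isoprenoid units, had 4 of 6 genes below 0 and a median log2 ratio of -0.11, or -0.06 with the loess correction, under which 3 of 6 were below. Hmgcs1, the synthase that makes HMG-CoA, had 7674 in the wild-type array and 6813 in the mutant array. That is a log2 ratio of -0.17, and 4 of its 5 probe sets were lower while the dimmest, at 435 and 560, gave 0.36. Idi1, the isomerase that interconverts both isoprenoid building blocks, had 3972 and 3479, a log2 ratio of -0.19 with a second probe set at -0.39. Mvk, mevalonate kinase, had 192 and 163, a log2 ratio of -0.23 with a second probe set at -0.07. These were the mevalonate genes with the lowest ratios, and Mvk and Idi1 kept that sign in every probe set.

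The other mevalonate genes lay nearer to 0. Pmvk, phosphomevalonate kinase, had 626 in the wild-type array and 655 in the mutant array, a log2 ratio of 0.07. Mvd, the decarboxylase of the next step, had 176 and 188, a log2 ratio of 0.10 with a second probe set at 0.19. Fdps, which makes farnesyl pyrophosphate at the branch point to sterols, had 1584 and 1528, a log2 ratio of -0.05 that was 0.02 after quantile normalization. Genes of consecutive steps thus had ratios of different sign.

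The steps from squalene to cholesterol held both extremes of the list. Of 11 genes 5 were above and 6 below 0, with a median of -0.01, which was 0.05 after the loess correction with 8 above. Msmo1, the methylsterol oxidase that starts the removal of a pair of methyl groups from the sterol ring, had 3144 in the wild-type array and 2579 in the mutant array, a log2 ratio of -0.29. Its second probe set, at 247 in both arrays, gave -0.00. Hsd17b7, the ketoreductase that completes that demethylation, had 817 and 974, a log2 ratio of 0.25, and all 4 of its probe sets were higher, from 0.09 to 0.40. The enzymes of a single demethylation sequence thus lay at opposite ends of the list.

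Nsdhl, the dehydrogenase that acts between them, had 349 and 369, a log2 ratio of 0.08. Ebp, the sterol isomerase, had 316 and 337, a log2 ratio of 0.09. Both genes are X-linked, and the pools differed in Xist and Eif2s3y as given above, whose part in these values was not tested. Neither gene departed from 0 by more than 0.26, the SD over all genes of the difference between the ratios of a gene's brightest pair of probe sets, which describes probes and not samples.

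Of the enzymes from squalene to lanosterol, Fdft1 differed in sign between scalings and Lss between probe sets. Fdft1, squalene synthase, had 3052 in the wild-type array and 3035 in the mutant array, a log2 ratio of -0.01 that was 0.07 after quantile normalization. Sqle, squalene epoxidase and a rate-limiting step, had 1742 and 1834 with its single probe set, a log2 ratio of 0.07. Lss, lanosterol synthase, had 774 and 886, a log2 ratio of 0.19, but the dimmest of its 3 probe sets gave -0.32 and their mean was -0.01. Sqle was the member of the trio with a sign that did not change under any setting tried. With a single probe set, however, the changes of probe sets could not alter its value.

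Cyp51, which removes the first methyl group of lanosterol, had 2050 and 1987, a log2 ratio of -0.05 that was 0.02 after quantile normalization, and a second probe set gave -0.30. Tm7sf2, a sterol reductase, had 171 and 155, a log2 ratio of -0.14. Sc5d, the sterol desaturase, had 2153 and 2031, a log2 ratio of -0.08. The mean over its 3 probe sets was 0.09, or 0.03 over the 2 at or above the floor. Dhcr7, which carries out the last reduction to cholesterol in one branch and is the gene of Smith-Lemli-Opitz syndrome, had 269 and 266, a log2 ratio of -0.02 that was 0.02 after the loess correction. By their brightest probe sets and the values as deposited, the genes of this paragraph lay between -0.14 and -0.02.

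The control genes, which sense sterols and drive the pathway, ran from -0.08 to 0.09 by their brightest probe sets. Other probe sets at or above the floor reached -0.38 for Insig2 and 0.24 for Srebf2. Srebf2, which encodes the SREBP that favours sterol genes, had 1057 in the wild-type array and 1003 in the mutant array, a log2 ratio of -0.08, whereas its second probe set gave 0.24. Srebf1, which encodes the SREBP forms that favour fatty acid genes, had 525 and 560, a log2 ratio of 0.09. Scap, the escort that carries SREBP out of the endoplasmic reticulum, had 398 and 382, a log2 ratio of -0.06. SREBP activity depends on cleavage of the protein, which RNA levels do not show.

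Insig1, both a brake on the pathway and a direct SREBP target, had 2816 and 2911, a log2 ratio of 0.05. Insig2, a related brake that is less dependent on SREBP, had 224 and 239, a log2 ratio of 0.09, while its other probe sets gave -0.01 and -0.38. The target Insig1 thus did not share the sign of the targets Hmgcs1 and Idi1.

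The fatty acid enzymes had 6 of 10 genes below 0, with a median of -0.04, which was 0.02 after the loess correction with 5 below. Acly, which makes cytosolic acetyl-CoA from citrate, had 2932 in the wild-type array and 2750 in the mutant array, a log2 ratio of -0.09, and the 3 probe sets at or above the floor were all lower, the lowest at -0.29. Acaca, acetyl-CoA carboxylase, had 413 and 389, a log2 ratio of -0.09, and its probe set below the floor gave 0.23. Fasn, fatty acid synthase, had 1642 and 1531 with its single probe set, a log2 ratio of -0.10. These 3 genes form the core of fatty acid synthesis and had values within 0.02 of each other on the log2 scale. They kept their sign under the scalings tried, with a median of -0.04 after the loess correction, though Acaca was at 0.07 as the mean over its probe sets.

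The desaturase Scd1, which introduces the double bond into saturated fatty acids, gave different answers from its probe sets. The brighter had 2625 in the wild-type array and 2601 in the mutant array, a log2 ratio of -0.01 that was 0.05 after quantile normalization, and the other had 1275 and 817, a log2 ratio of -0.64 or 1.56-fold lower. This was the only 1 of 66 member probe sets at or above the floor to pass 1.5-fold, against 3.59% of all such probe sets. The mean over both, -0.33, was the only member value to pass that 25% mark when probe sets were averaged. Scd2, the related desaturase expressed broadly in young mice, had 6013 and 6166, a log2 ratio of 0.04, and its other probe sets gave -0.00 and -0.11. Which Scd1 probe set is nearer to the transcript level was not tested.

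Fads1 and Fads2, the desaturases of polyunsaturated fatty acids, lie side by side in the genome. Fads1 had 651 in the wild-type array and 679 in the mutant array, a log2 ratio of 0.06 with a second probe set at 0.29. Fads2 had 391 in both arrays, a log2 ratio of 0.00, and its other probe sets gave -0.23 and 0.15. Neighbouring genes of shared function thus both lay close to 0 by their brightest probe sets.

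Among the elongases, which lengthen fatty acids, Elovl5 had the lowest ratio and the closest agreement. Elovl5, which acts on polyunsaturated fatty acids, had 2972 and 2572 with its brightest probe set and a log2 ratio of -0.21, the same as the -0.21 of its second probe set. Elovl1, which makes very long saturated fatty acids, had 1831 and 1740, a log2 ratio of -0.07 that was 0.00 after quantile normalization, and its other 3 probe sets ran from -0.53 to -0.11. Elovl6, which lengthens the products of Fasn and is an SREBP target, had 461 and 484, a log2 ratio of 0.07, but its other probe sets gave -0.25 and -0.15. Averaging probe sets therefore put 6 of the 7 desaturases and elongases below 0, where the brightest probe sets put 3.

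With the values as deposited, lower values were more common over all probe sets of these genes than by the brightest probe sets alone. Of the 66 at or above the floor 42 were below 0, or 63.6%, beside 54.4% of all such probe sets, and their median log2 ratio was -0.06 beside -0.02. Of these 66, 7 passed the 25% mark, 5 of them lower and 2 higher, against 15.7% of all. Among the 20 members with at least 2 such probe sets, 12 had a single sign, 9 lower and 3 higher, and 8 had both signs. The 9 lower were Mvk, Idi1, Fdft1, Cyp51, Msmo1, Acly, Scd1, Elovl1 and Elovl5, and the 3 higher were Mvd, Hsd17b7 and Fads1. Over all 4878 such genes 52.5% had a single sign, 1525 of them lower and 1035 higher, and of all probe sets past the 25% mark 1873 were lower and 1179 higher. With the values as deposited, the lean of the members toward lower values thus runs the same way as that of all genes. These probe set counts were not repeated after quantile normalization or the loess correction. Probe sets of a gene share the same arrays and do not add samples.

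**Figure D2:**
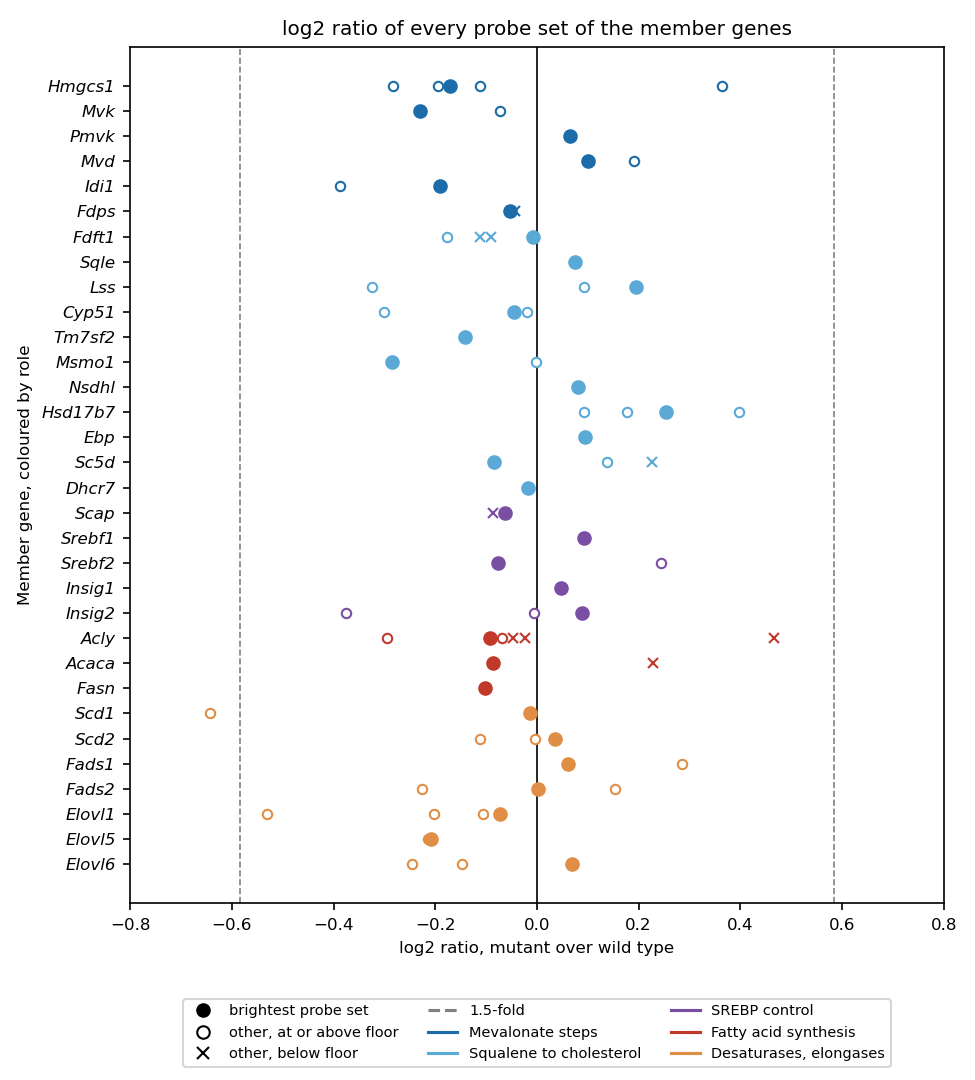
log2 ratio of mutant over wild type for every probe set of the 32 genes, with the brightest probe set filled, other probe sets at or above the floor open, those below the floor as crosses and 1.5-fold as dashed lines. Filled points lie between -0.29 and 0.25, and the only point beyond a dashed line is the second probe set of Scd1 at -0.64.

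Other genes of lipid metabolism were taken from 5 lists of the same field, with 51 of 61 entries measured. Of the 45 at or above the floor 18 were above and 27 below 0, with a median of -0.04. Of these 45, 1 passed 1.5-fold, against 3.72% of all genes at or above the floor. That gene was Elovl7, an elongase of long-chain fatty acids, with 377 in the wild-type array and 223 in the mutant array, 1.69-fold lower. All 6 of its probe sets were lower, the mean being -0.54 ± 0.18 (SD, 6 probe sets of the same arrays), and that mean falls short of 1.5-fold. Over the 3 probe sets at or above the floor the mean was -0.69 ± 0.06 (SD), which passes 1.5-fold. Elovl7 thus lay outside the range of the 3 elongases among the members by its brightest probe set.

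Of the 19 other lipogenic genes at or above the floor, 14 were below 0, or 12 after the loess correction, with a median of -0.08. Dgat2, which makes triglyceride, had 500 and 373, a log2 ratio of -0.42 with a second probe set at -0.24. Pnpla3, a lipase gene that SREBP induces in liver, was highest with 271 and 323, a log2 ratio of 0.26, followed by Thrsp, a lipogenic nuclear protein gene, at 0.17. Of all 11329 genes at or above the floor 6231 were below 0, so some lean to lower values is common to the whole array. Elovl7 and Dgat2 were the 2 of the 19 that passed the 25% mark, against 14.8% of all genes at or above the floor.

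Among 8 genes of SREBP processing and sterol-regulated degradation, 6 were above 0, or 4 after centring on the array median, with a median of 0.02. Paqr3, a Golgi protein that anchors Scap, was lowest with 139 in the wild-type array and 95.1 in the mutant array, a log2 ratio of -0.55. Erlin1, a cholesterol-binding membrane protein, had -0.34 by its brightest probe set and 0.19 by the other. Rnf145, a ubiquitin ligase, and Erlin2 were highest at 0.16 and 0.12. Mbtps1, the protease that makes the first cut in SREBP, had 0.06 by its brightest probe set, while its other probe sets gave 0.30 and 0.37. By their brightest probe sets Paqr3 and Erlin1 were the 2 of the 8 that passed the 25% mark, against 14.8% of all genes.

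Of 7 sterol uptake and transport genes 5 were below 0, or 4 after the loess correction, with a median of -0.05. Vldlr, a lipoprotein receptor, had 499 and 410, a log2 ratio of -0.28, and Scarb1, the receptor for high-density lipoprotein, had -0.22. Npc2, which moves cholesterol out of lysosomes, had 0.11 and Stard4, a sterol carrier, had 0.04, or 0.34 without names ending in _a_at and the like, which can match more than 1 transcript. Uptake genes and synthesis genes both differed little between the arrays.

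Of 8 liver X receptor (LXR), efflux and oxysterol genes, 5 were below 0, or 4 after the loess correction, with a median of -0.08. Apoe, an LXR target and lipid carrier, had 348 in the wild-type array and 236 in the mutant array, a log2 ratio of -0.56 from its single probe set. Cyp7b1, which hydroxylates oxysterols, had 117 and 86.2, a log2 ratio of -0.45 with a second probe set at or above the floor at -0.56. Cyp27a1, which makes an oxysterol, had 54.6 and 71.5, a log2 ratio of 0.39 at signals close to the floor, and the transporter Abca1, an LXR target as well, had 0.04. The targets Apoe and Abca1 were thus not alike.

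The remaining sterol list held 3 genes at or above the floor. Acat1, the mitochondrial thiolase, had 1278 and 1513, a log2 ratio of 0.24, with a mean of 0.21 ± 0.03 (SD, 3 probe sets). Ggps1, which makes geranylgeranyl pyrophosphate from the same isoprenoid pool, had -0.11 and all 4 of its probe sets were lower. Dhdds, of the dolichol branch, had 0.08, or -0.07 as the mean over its probe sets, of which only the brightest was at or above the floor.

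**Figure D3:**
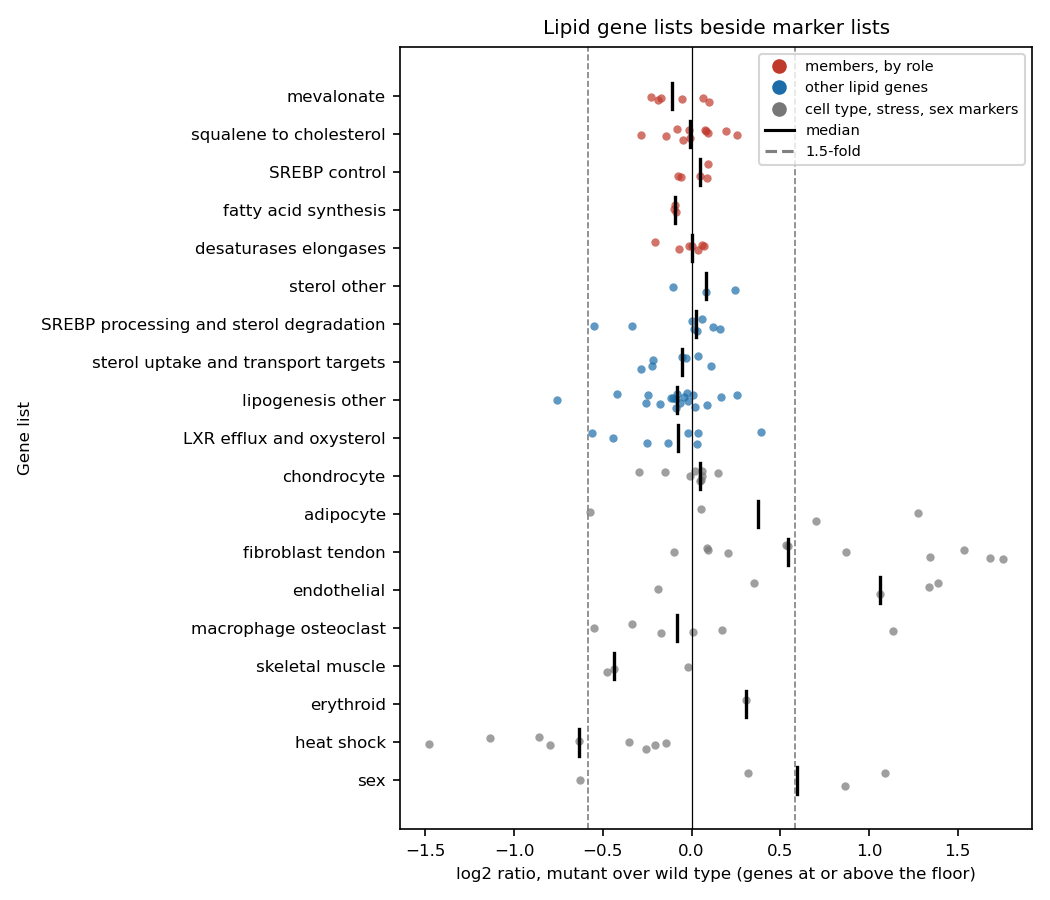
log2 ratio of mutant over wild type for genes at or above the floor, by list, with members by role in red, other lipid genes in blue and marker lists in grey; black bars are medians over genes and dashed lines mark 1.5-fold. The member medians lie between -0.11 and 0.05, whereas those of the fibroblast, endothelial and heat shock lists are 0.54, 1.06 and -0.64.

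Adipocytes express these enzymes at high levels, so their markers were set beside these genes. Of 8 markers measured, 4 lay below the floor, and Adipoq, which encodes the adipocyte hormone adiponectin, had 11.2 in the wild-type array and 11.6 in the mutant array. Of the 4 at or above the floor 3 were above 0, with a median log2 ratio of 0.38. Of these 4, 2 passed 1.5-fold, both higher, against 3.72% of all genes in either direction. Lpl, a lipase also made by other cells, was 2.42-fold higher, and Fabp4, a fatty acid-binding protein of fat and vessels, was 1.63-fold higher with all 4 of its probe sets above 0. Cebpa, an adipogenic factor, had 0.05 and Pparg, the adipocyte master regulator, had -0.57, or -0.59 and 1.5-fold lower after centring on the array median. The summed intensity of the 8 was 1096 in the wild-type array and 1774 in the mutant array. The part of other cell types, and of the heat shock difference, in the values of the synthesis genes was not tested. The 32 synthesis genes summed to 54011 in the wild-type array and 51675 in the mutant array.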

How the data were processed

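RNA of 2 samples was compared, 1 array per genotype. The authors deposited linear intensities, 1 per probe set and array, made with MAS5 per the submitters' processing notes, with no version, scaling target or detection calls given in the sources used here. It is not known if the arrays were scaled to each other. Probe sets were named from the platform annotation, in which 34945 of 45037 had 1 symbol, 932 several and 9160 none here, and the symbols of all 32 measured members matched the RefSeq table of GRCm38.p6 by Entrez identifier. The log2 of each intensity was taken without further normalization, and the probe set of highest mean log2 signal stood for its gene. The floor was the 50th percentile of mean log2 signal (11329 genes). A gene counted as called at 1.5-fold. The number of arrays limits the precision, and no test was run.

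The members and lists were chosen with earlier results of these data known. Every measured member is named, and of the 5 pathway lists the 2 highest and 2 lowest at or above the floor, and of each marker list the highest, the lowest and the defining genes. Plin1 was not analysed here. Genes named from the 3 lists in the closing section were chosen after their values were seen. Of the marker lists not described in the report, muscle had a median log2 ratio of -0.44 over 3 genes at or above the floor (Tnnt3 -0.48, Acta1 -0.44, Ckm -0.02), macrophage and osteoclast markers -0.08 over 6 (Acp5 -0.55, Csf1r 0.17, Ctsk 1.14), and erythroid cells 0.31 for Alas2 alone. Alternatives were median centring, quantile normalization, a loess correction (span 0.3), an offset of 32 before log2, the mean over probe sets, leaving out probe sets ending in _s_at, _x_at or _a_at, floors at percentile 40, at percentile 60 and none, and thresholds of 25% and of 2-fold. For genes that are not members they were added after the data had been seen. Scripts were tested on simulated data. Python 3.11.15, numpy 2.4.6, pandas 2.3.3, statsmodels 0.14.6 and matplotlib 3.10.9 were used.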

Additional observations from a re-analysis of the deposited data

How the results depend on the processing

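No member passed 1.5-fold under any of the 11 alternatives, which changed scaling, offset, probe sets, floor or threshold. The other floors kept all 32 members with unchanged values, and the other thresholds replaced the 1.5-fold limit. Those settings therefore could not alter this result. Nor could the offset, which only draws ratios toward 0, or median centring, which moved every ratio by -0.02. The result rests on quantile normalization, the loess correction and the changes of probe sets. The members' median log2 ratio stayed between -0.04 (median centring) and 0.03 (quantile normalization), and the number of members above 0 between 12 and 20. Of the 32 members, 18 kept their sign in all settings run for them, 9 lower and 9 higher, and 14 did not. The offset cannot change a sign, and averaging probe sets cannot change that of a member with 1 probe set. Of 189 single-member values under an alternative, 2 moved by more than 0.26, the SD between a gene's 2 brightest probe sets. These were Msmo1, at -0.00 when probe sets ending in _s_at, _x_at or _a_at were dropped, and Scd1, at -0.33 as the mean over probe sets. Dropping probe sets with those endings left 29 members. Many of the 189 values could hardly move that far, so their number does not measure robustness. Median centring and the offset change ratios little, and a member with 1 probe set keeps its value when probe sets are averaged. The median of all genes moved by at most 0.03. No paired analysis was possible because each genotype has 1 array, which also leaves no sample to leave out, and with 1 array per group the depth of replication limits every value.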

Other observations

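Genes of fatty acid uptake included 3 that differed 1.5-fold. The 3 lists used here, of uptake, oxidation and lipid droplets, were chosen after values of some of their genes had been seen. Of 12 uptake and activation genes, all at or above the floor, 8 had values above 0 and 3 passed 1.5-fold, higher in the mutant, against 3.72% of all genes in either direction. Of these 3, Lpl and Fabp4 were already counted among the adipocyte markers above, so this share does not add to that one. Cd36, a fatty acid translocase of endothelium, fat and macrophages, had 134 in the wild-type array and 382 in the mutant array, 2.84-fold higher, with a mean log2 ratio of 1.37 ± 0.17 (SD, 3 probe sets of the same arrays). Lpl, which releases fatty acids from lipoproteins, had 253 and 613. Fabp4, a fatty acid-binding protein of fat and vessels, had 562 and 914, or a log2 ratio of 0.28 when probe sets ending in _a_at were dropped. Gpihbp1, the endothelial anchor of Lpl, had 76.8 and 111, a log2 ratio of 0.53. Fabp5 had -0.09, Fabp3 -0.21 and the acyl-CoA synthetase gene Acsl4 -0.52, the last at -0.19 as the mean over its probe sets. The endothelial list had a median of 1.06 in the same comparison, or 0.81 with an offset of 32, and its part in these values was not tested.

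Oxidation and storage genes were nearer to 0. Of 7 oxidation genes at or above the floor 3 were above and 4 below 0, with a median of -0.01, or 6 above after quantile normalization. Cpt1a, which admits fatty acids to mitochondria, had 111 and 171, 1.54-fold higher. As the mean over its probe sets the log2 ratio was 0.27, or 0.42 over the 2 at or above the floor. Of 6 lipid droplet genes 4 were above 0 and none passed 1.5-fold, against 3.72% of all genes. Plin2, the main droplet coat gene of most cells, had 2254 and 2282, and Mgll, a monoglyceride lipase, was highest with a log2 ratio of 0.37.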
